A study of Mus musculus with 14 samples.

Results

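Genes of fatty acid oxidation and ketone body synthesis were examined in 14 livers, measured on whole-transcript arrays. The animals were males of C57BL/6J, an inbred strain. The list named 45 genes, most of them known to act in the mitochondrial or the peroxisomal pathway. Of these 42 were found in the array table, each through its brightest probe set with a single gene symbol, among 22180 genes in all. The other 3, Acsl1, Acsl3 and Acsm3, had no such probe set and are not analysed here. By the site of the encoded protein, 20 of the 42 genes were taken as mitochondrial, 15 as peroxisomal and 7 as belonging to several or other sites. Livers came from 7 mice after a single sleep deprivation of 6 h (mice 1, 2, 3, 5, 6, 10 and 13) and from 7 control mice (mice 4, 7, 8, 9, 11, 12 and 14). All mice had the same strain, sex and tissue, and the labels name no genetic change, age, hour of collection or feeding state. The study disturbed sleep in 3 ways, by gentle handling, by changing cages and on a water platform, and took forward the one that impaired glucose tolerance. Which it was for these arrays is not given in the labels. Livers carry numbers in the labels, and each number is treated as a separate mouse, so that p-values measure the spread between these samples, which may be technical.

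Mitochondria and peroxisomes share the work of burning fatty acids in hepatocytes. Long-chain acyl-CoA made by acyl-CoA synthetases enters mitochondria as acylcarnitine and is shortened in a repeated cycle of dehydrogenation, hydration, dehydrogenation and thiolysis, whose electrons pass through the electron transfer flavoprotein. In fasting, the liver turns much of the resulting acetyl-CoA into ketone bodies. Peroxisomes take up very-long-chain, branched and bile acid precursor chains through ABC transporters, shorten them with their own oxidases, bifunctional proteins and thiolases, and pass the shortened chains on. Many genes on both sides are known targets of the nuclear receptor PPARA.

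Array values were log2 levels, and precision is limited by having 7 arrays per group. Medians per array ran from 3.44 to 3.49. Correlations across genes between single arrays ran from 0.989 to 0.995. Hepatocyte markers were bright, with mean log2 levels between 8.70 and 13.31 for the 9 measured. Of sinusoidal endothelial markers 3 of 9 were higher after sleep deprivation and 0 lower, of stellate cell markers 1 of 9 and 0, and of Kupffer cell markers 0 of 9 in either direction. The endothelial markers that were higher were Lyve1, at a log2 difference of 1.13 ± 0.18, Oit3, at 0.46 ± 0.094, and Pecam1, at 0.29 ± 0.080 (limma, adjusted p = 0.000422, 0.00323 and 0.0243). Of the 9 endothelial markers 7 had a positive and 2 a negative difference. The negative ones were Kdr, at -0.18 ± 0.067, and Dnase1l3, at -0.038 ± 0.080, and neither passed. The call of Pecam1 did not hold in 6 of the 14 fits that each left out a single mouse. Among the hepatocyte markers Apoa1 and Cps1 were higher and 0 lower, and these calls did not hold in 4 and 10 of those fits. Of cholangiocyte markers 1 of 5 was higher and of lymphocyte markers 1 of 8 lower, while 0 of 4 adipocyte and 0 of 5 muscle markers passed. Beside these marker counts, 3.88% of all genes tested were higher and 4.62% lower. For genes brighter than the median gene these shares were 7.33% and 8.71%. The calls of the stellate marker Rgs5 and the cholangiocyte marker Sox9 did not hold in 8 and 7 of the 14 fits. Linear levels summed over the endothelial markers ran from 1575 to 2123 in sleep-deprived mice and from 1443 to 1830 in controls. The same sums over the hepatocyte markers ran from 49561 to 51174 in sleep-deprived mice and from 48542 to 51545 in controls. The part of these marker differences in the results below was not tested. In a bulk sample, fewer cells of a type and less RNA per cell cannot be told apart.

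After sleep deprivation a minority of the oxidation genes had changed, in both directions and mostly by small amounts. In limma, 5 of the 42 genes were higher (Crat, Pex11a, Abcd4, Acox2 and Eci2) and 8 lower (Abcd2, Amacr, Bdh1, Abcd3, Crot, Echs1, Acsm1 and Hadh) at an adjusted p under 0.05 over all genes. Beside this, 3.88% of all genes tested were higher and 4.62% lower, 8.50% in total. Bright genes pass more often, and 40 of the 42 were brighter than the median gene. Among the 11090 genes brighter than the median gene 7.33% were higher and 8.71% lower, against 11.9% and 19.0% of the oxidation genes. Most of the 42 lay far above the median gene in level, and no background of equally bright genes was formed. At 8 of the 42 genes, or 19.0%, no sleep-deprived value lay within the control range or beyond its other end, against 3.13% of all genes and 6.09% of the brighter ones. The genes, and the further lists below, were chosen with earlier results of these data known. These shares therefore describe the lists and are no test of an excess. Of the 13 genes that changed, 10 differed by less than 1.5-fold. Of the 29 genes that did not pass, 19 had a 95% interval of the log2 difference within 0.25 of 0. The median difference over the 42 genes was 0.019 on the log2 scale, and -0.0048 over all genes.

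By site, among 20 mitochondrial genes 0 were higher and 4 (20%) lower, with a median log2 difference of 0.011. Among 15 peroxisomal genes 2 (13.3%) were higher and 3 (20%) lower, with a median of -0.056. Of the 7 genes of several or other sites, 3 (42.9%) were higher and 1 (14.3%) lower. Beside these, 3.88% of all genes were higher and 4.62% lower, and 7.33% and 8.71% of genes brighter than the median gene. The median size of the difference regardless of sign was 0.088 for mitochondrial and 0.163 for peroxisomal genes, and 0.101 over genes brighter than the median gene. These are descriptions of the lists, and no test compared one list with the other. The number of higher genes rests in part on sleep-deprived mouse 2: without it 9 genes were higher, the added ones being Cpt2, Slc25a20, Hadhb and Ehhadh. Of these, Hadhb was read by a probe set dimmer than the median gene.

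**Figure D1:**
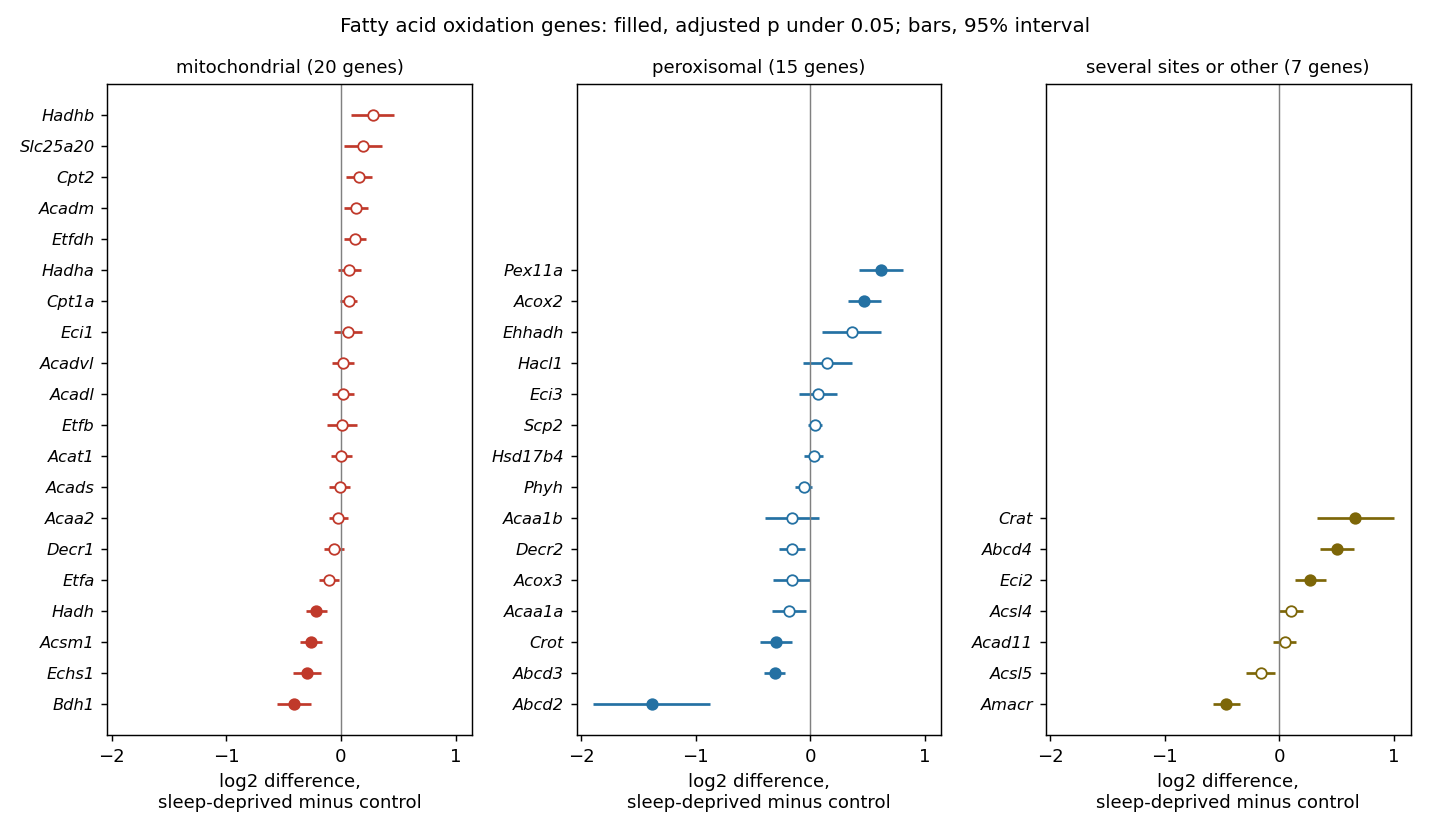
Log2 difference, sleep-deprived minus control, of the 42 measured genes in 3 panels by site of the protein, as points with the fit's 95% interval as bars (n = 7 mice each). Filled points passed an adjusted p of 0.05; all 4 filled mitochondrial points lie left of 0, while the peroxisomal panel runs from Abcd2 at -1.38 to Pex11a at 0.62.

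Promoters are shown as examples for Pex11a, which rose, for Echs1 and Acsm1, which fell, and for Cpt1a, the entry enzyme, which did not pass. Of the 9 genes that changed and had a promoter entry, Echs1 and Acsm1 alone hold AGGTCA in the windows counted below. These 4 genes therefore do not represent the list. Each line gives the 250 bases before the annotated start from RefSeq (GRCm38.p6), 5′ to 3′ on the gene's strand, with AGGTCA, the core motif of nuclear receptors, and CCAAT in capitals on either strand.
Pex11a, chr7:79743132-79743381, minus strand: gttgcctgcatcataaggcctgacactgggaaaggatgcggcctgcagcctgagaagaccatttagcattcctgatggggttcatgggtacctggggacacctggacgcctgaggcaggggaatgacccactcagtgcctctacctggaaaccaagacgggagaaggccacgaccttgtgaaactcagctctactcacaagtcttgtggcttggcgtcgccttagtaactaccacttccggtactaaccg
Echs1, chr7:140116422-140116671, minus strand: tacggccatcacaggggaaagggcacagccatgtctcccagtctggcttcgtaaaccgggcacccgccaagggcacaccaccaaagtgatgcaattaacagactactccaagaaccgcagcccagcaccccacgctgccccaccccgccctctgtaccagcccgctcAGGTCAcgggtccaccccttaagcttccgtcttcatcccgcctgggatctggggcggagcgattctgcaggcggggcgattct
Acsm1, chr7:119617562-119617811, plus strand: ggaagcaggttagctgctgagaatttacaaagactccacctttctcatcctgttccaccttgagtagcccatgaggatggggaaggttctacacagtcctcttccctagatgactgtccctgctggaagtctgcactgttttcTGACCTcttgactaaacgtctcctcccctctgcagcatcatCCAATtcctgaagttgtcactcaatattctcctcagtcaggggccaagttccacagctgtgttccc
Cpt1a, chr19:3323051-3323300, plus strand: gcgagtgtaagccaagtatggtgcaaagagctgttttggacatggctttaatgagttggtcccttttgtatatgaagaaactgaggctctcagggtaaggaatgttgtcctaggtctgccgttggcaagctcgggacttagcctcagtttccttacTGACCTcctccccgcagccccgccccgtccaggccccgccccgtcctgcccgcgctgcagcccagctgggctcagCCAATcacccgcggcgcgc
Of the 42 measured genes 34 had a promoter entry, 9 of them among the genes that changed. In windows from 250 bases before to 50 after the start, AGGTCA or its reverse complement stood in 7 of the 34, or 20.6%, against 18.1% of all 27025 genes with an entry. Those 7 were Cpt1a, Acadm, Acadvl, Echs1, Acsm1, Phyh and Scp2, of which Echs1 and Acsm1 changed. CCAAT stood in 15 of the 34, or 44.1%, against 41.1% of all genes. A direct repeat of AGGTCA with 1 base between its copies, which overlaps the first motif, stood in 0 of the 34 and in 0.0481% of all genes, and the E-box CACGTG in 0 of the 34 and in 8.09% of all. These are matches of letters in one window and no binding sites.

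Of the 3 measured acyl-CoA synthetases 1 fell, and of the 3 genes of the carnitine shuttle 0 passed. Acsl4, a synthetase that prefers arachidonate, was at a log2 difference of 0.10 ± 0.049 (moderated SE of limma, as for all genes below) and Acsl5, another long-chain synthetase, at -0.16 ± 0.061, and neither passed (limma, adjusted p = 0.259 and 0.118). Acsm1, a medium-chain synthetase of the mitochondrial matrix (probe set 17482272), had log2 levels from 9.11 to 9.35 (median 9.22) in sleep-deprived mice and from 9.40 to 9.59 (median 9.46) in controls. All 7 sleep-deprived mice lay below the lowest control. Acsm1 fell by 0.26 ± 0.046 on the log2 scale, to 83.3% of the control level (limma, adjusted p = 0.000817).

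Cpt1a, which forms acylcarnitine at the outer mitochondrial membrane and limits the flow of fatty acids inward, had log2 levels from 11.02 to 11.10 (median 11.06) in sleep-deprived mice and from 10.92 to 11.07 (median 10.98) in controls. All 7 sleep-deprived mice lay above the control mean and 1 above the highest control. Its difference was 0.066 with a 95% interval from -0.0048 to 0.137 (limma, adjusted p = 0.304). Slc25a20, the carrier that brings acylcarnitine through the inner membrane, was at 0.19 ± 0.079 (limma, adjusted p = 0.169). Cpt2, which turns acylcarnitine back into acyl-CoA, was at 0.16 ± 0.056 (adjusted p = 0.0972). In both genes sleep-deprived mouse 2 had the lowest level of its group, and without it Slc25a20 was at 0.24 (limma, adjusted p = 0.0408) and Cpt2 at 0.19 (adjusted p = 0.0188).

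Within the mitochondrial spiral the early dehydrogenases did not pass and a pair of short-chain enzymes fell. The acyl-CoA dehydrogenases of long, very long and short chains, Acadl, Acadvl and Acads, had log2 differences of 0.017, 0.021 and -0.012, with 95% intervals that together span -0.102 to 0.118. Acadm, the medium-chain dehydrogenase, was at 0.13 ± 0.050 (limma, adjusted p = 0.131), with sleep-deprived levels from 10.93 to 11.23 and control levels from 10.81 to 11.09. Acad11, a further dehydrogenase, was at 0.047 ± 0.049, and Acaa2, the mitochondrial thiolase of the last step, at -0.024 ± 0.0395. None of these 6 genes passed the test.

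Hadha and Hadhb encode the subunits of the trifunctional protein, which runs the later steps on long chains, and are neighbours on chromosome 5. Hadha was at 0.073 ± 0.049 (limma, adjusted p = 0.487). Hadhb had log2 levels from 3.78 to 4.22 (median 3.97) in sleep-deprived mice and from 3.44 to 3.99 (median 3.70) in controls. Its difference was 0.28 ± 0.090 (limma, adjusted p = 0.0643), the smallest adjusted p among the genes that did not pass. The probe set of Hadhb thus read close to the array medians, at a mean of 3.85 against 10.66 for Hadha. Whether this probe set reports the Hadhb transcript was not tested, so its difference is uncertain. RMA can understate differences of dim probe sets, and this was not tested here.

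Echs1, the short-chain enoyl-CoA hydratase (probe set 17497612), had log2 levels from 8.96 to 9.32 (median 9.26) in sleep-deprived mice and from 9.38 to 9.60 (median 9.47) in controls. The groups did not overlap. Echs1 fell by 0.29 ± 0.058 on the log2 scale, to 81.6% of the control level (limma, adjusted p = 0.00230). Hadh, the short-chain hydroxyacyl-CoA dehydrogenase that acts next (probe set 17410390), had log2 levels from 10.80 to 11.11 (median 10.92) in sleep-deprived mice and from 11.07 to 11.24 (median 11.16) in controls. Here 6 of 7 sleep-deprived mice lay below the lowest control, and mouse 10 lay inside the control range. Hadh fell by 0.21 ± 0.043, to 86.2% of the control level (limma, adjusted p = 0.00271).

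Unsaturated chains need isomerases and a reductase besides the spiral, and of these 1 gene changed. Eci2, an isomerase that moves double bonds and is found in mitochondria and peroxisomes (probe set 17291833), had log2 levels from 9.18 to 9.46 (median 9.27) in sleep-deprived mice and from 8.81 to 9.25 (median 9.03) in controls. It was above the highest control in 5 of 7 sleep-deprived mice and rose by 0.27 ± 0.064, or 1.20-fold (limma, adjusted p = 0.0106). Eci1, the mitochondrial isomerase, was at 0.064 ± 0.059, and Decr1, the mitochondrial dienoyl-CoA reductase, at -0.062 ± 0.043. Decr2, the peroxisomal reductase, was at -0.16 ± 0.054 (limma, adjusted p = 0.0770), and 6 of 7 sleep-deprived mice lay below the lowest control. Without sleep-deprived mouse 10, Decr2 passed at -0.19 (limma, adjusted p = 0.0234). Eci3, the neighbour and close relative of Eci2 on chromosome 13, read from 2.63 to 3.10 in sleep-deprived mice and from 2.59 to 2.94 in controls, below the array medians. Probe sequences are not used here, so how far the probe sets of these relatives separate them is uncertain.

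None of the 3 electron transfer genes passed. Etfa and Etfb, the subunits of the electron transfer flavoprotein, were at -0.10 ± 0.042 and 0.0058 ± 0.063, and Etfdh, which hands the electrons to ubiquinone, at 0.12 ± 0.047 (limma, adjusted p = 0.159, 0.977 and 0.134). All 7 sleep-deprived mice lay above the control mean of Etfdh, and 6 of 7 lay below the lowest control of Etfa, by small amounts.

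Among ketone body genes Bdh1 fell. It encodes the mitochondrial dehydrogenase that interconverts acetoacetate and 3-hydroxybutyrate (probe set 17324643). Its log2 levels ran from 6.94 to 7.51 (median 7.24) in sleep-deprived mice and from 7.60 to 7.76 (median 7.62) in controls, without overlap. Bdh1 fell by 0.41 ± 0.071, to 75.4% of the control level (limma, adjusted p = 0.000806). The SD was 0.189 in the 7 sleep-deprived mice and 0.0597 in the 7 controls, or 3.16 times as large. Acat1, the mitochondrial acetoacetyl-CoA thiolase, was at 0.0037 with a 95% interval from -0.087 to 0.094 (limma, adjusted p = 0.979).

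**Figure D2:**
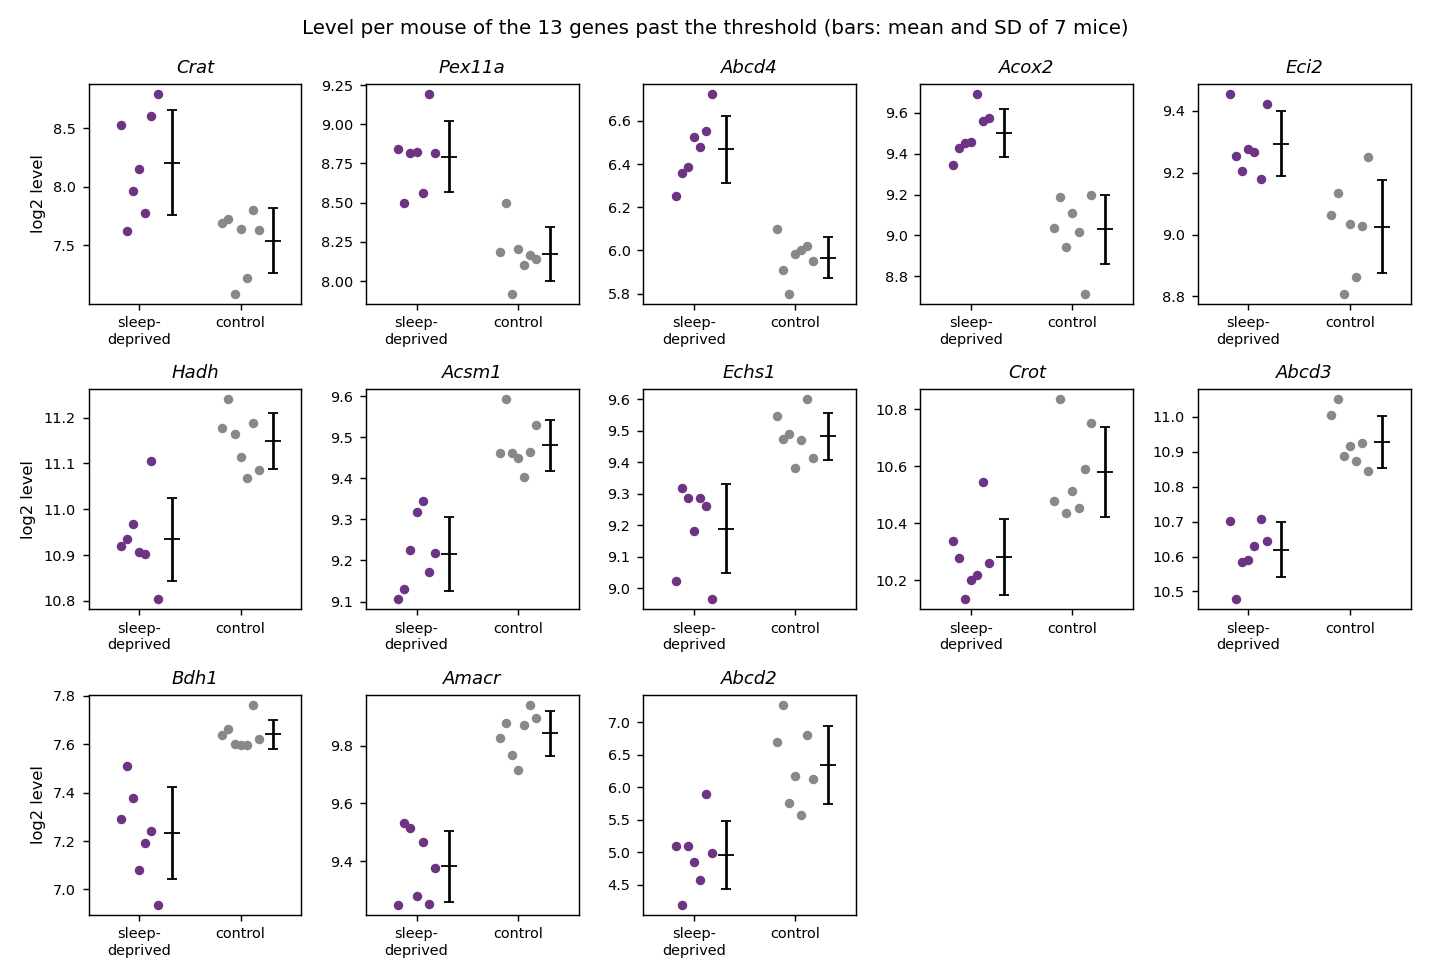
Log2 level per mouse (points) of the 13 genes with an adjusted p under 0.05, sleep-deprived mice left and controls right in each panel, each panel with its own y axis, with the mean and SD of 7 mice as bars. In 8 panels, among them Bdh1 and Acox2, no sleep-deprived point lies at the height of a control point, while in Abcd2, Crot and Hadh 1 sleep-deprived point, mouse 10, lies inside the control range.

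The 3 measured transporters of ABC subfamily D all changed, 2 lower and 1 higher. Abcd2, an importer of very-long-chain and polyunsaturated acyl-CoA (probe set 17320652), had log2 levels from 4.19 to 5.90 (median 4.98) in sleep-deprived mice and from 5.58 to 7.27 (median 6.18) in controls. All sleep-deprived mice but mouse 10 lay below the lowest control. Its log2 difference was -1.38 ± 0.24, the largest of the 42 in size, at 38.3% of the control level (limma, adjusted p = 0.000866). It also varied more than the others within groups, with an SD of 0.528 in sleep-deprived mice and 0.604 in controls.

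Abcd3, an importer of long, branched and bile acid precursor chains (probe set 17409920), had log2 levels from 10.48 to 10.71 (median 10.63) in sleep-deprived mice and from 10.84 to 11.05 (median 10.92) in controls. The groups did not overlap, and Abcd3 fell by 0.31 ± 0.043, to 80.7% of the control level (limma, adjusted p = 7.96e-05). Abcd4, a relative known for moving cobalamin out of lysosomes (probe set 17282534), went the other way. It is counted among the oxidation genes, although cobalamin transport is not a step of fatty acid oxidation. Its log2 levels ran from 6.25 to 6.73 (median 6.48) in sleep-deprived mice and from 5.80 to 6.10 (median 5.99) in controls. The groups did not overlap, and Abcd4 rose by 0.50 ± 0.070, or 1.42-fold (limma, adjusted p = 8.82e-05).

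Of the 7 genes of the peroxisomal spiral, 1 was higher and 0 lower. Acox2, the oxidase of branched chains and bile acid intermediates (probe set 17303412), had log2 levels from 9.35 to 9.69 (median 9.46) in sleep-deprived mice and from 8.71 to 9.20 (median 9.04) in controls. The groups did not overlap, and Acox2 rose by 0.47 ± 0.069, or 1.39-fold (limma, adjusted p = 0.000137). Acox3, the other branched-chain oxidase measured, was at -0.16 ± 0.078 (limma, adjusted p = 0.260), with 5 of 7 sleep-deprived mice below the lowest control and 1 above the highest.

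Ehhadh, the bifunctional protein that hydrates and dehydrogenates straight chains, had log2 levels from 9.30 to 10.32 (median 9.61) in sleep-deprived mice and from 9.10 to 9.61 (median 9.45) in controls. Its 3 highest sleep-deprived mice, numbers 1, 10 and 13, lay above every control, and the other 4 lay among them. The difference was 0.36 ± 0.12 (limma, adjusted p = 0.0826), and 0.43 without sleep-deprived mouse 2 (adjusted p = 0.0255). Hsd17b4, the bifunctional protein of branched chains and bile acid intermediates, was at 0.031 with a 95% interval from -0.054 to 0.116.

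The thiolases that end the peroxisomal cycle did not pass. Acaa1a was at -0.18 ± 0.071 (limma, adjusted p = 0.132) and Acaa1b, its close copy in rodents, at -0.16 ± 0.11 (adjusted p = 0.519). All 7 sleep-deprived mice lay below the control mean of Acaa1a and 5 of 7 below that of Acaa1b. Values of these copies are uncertain where probes do not separate them. Scp2, whose gene encodes both a branched-chain thiolase and a sterol carrier, was at 0.044 ± 0.029 (limma, adjusted p = 0.481).

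Of the 3 genes of alpha-oxidation and branched-chain handling 1 fell. Amacr, the racemase that turns branched acyl-CoA and bile acid intermediates into the form the oxidases accept (probe set 17310349), had log2 levels from 9.25 to 9.53 (median 9.38) in sleep-deprived mice and from 9.71 to 9.94 (median 9.87) in controls. The groups did not overlap, and Amacr fell by 0.46 ± 0.054, to 72.6% of the control level (limma, adjusted p = 1.39e-05), the smallest adjusted p of the 42. Phyh, which starts the alpha-oxidation of phytanic acid, was at -0.056 ± 0.0365, and Hacl1, the lyase of the same route, at 0.15 ± 0.10 (limma, adjusted p = 0.459 and 0.481). Among the genes of bile acid side-chain shortening in the list, Acox2 was thus higher, Abcd3 and Amacr were lower, and Hsd17b4 and Scp2 did not pass.

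Of the carnitine acyltransferases of shorter chains, 1 rose and 1 fell. Crat, the carnitine acetyltransferase of mitochondria and peroxisomes (probe set 17383633), had log2 levels from 7.62 to 8.79 (median 8.15) in sleep-deprived mice and from 7.09 to 7.81 (median 7.64) in controls. Of the sleep-deprived mice 5 lay above the highest control, and mice 2 and 6 lay inside the control range. Crat rose by 0.66 ± 0.16, or 1.58-fold (limma, adjusted p = 0.0115). A dimmer probe set of Crat read 0.14 ± 0.086 (limma over all probe sets, adjusted p = 0.445), and the mean of both gave 0.40 (adjusted p = 0.0154).

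Crot, the carnitine octanoyltransferase with which medium chains leave peroxisomes (probe set 17445543), had log2 levels from 10.13 to 10.54 (median 10.26) in sleep-deprived mice and from 10.44 to 10.84 (median 10.51) in controls. All sleep-deprived mice but mouse 10 lay below the lowest control. Crot fell by 0.30 ± 0.068, to 81.3% of the control level (limma, adjusted p = 0.00736). Pex11a, a membrane protein that drives the elongation and multiplication of peroxisomes (probe set 17492417), had log2 levels from 8.50 to 9.20 (median 8.82) in sleep-deprived mice and from 7.92 to 8.50 (median 8.17) in controls. The lowest sleep-deprived mouse, at 8.501, lay just above the highest control, at 8.497. Pex11a rose by 0.62 ± 0.092, or 1.54-fold (limma, adjusted p = 0.000152).

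Single mice stood at the top or bottom of their group at many of the 42 genes. Among sleep-deprived mice, mouse 10 had the highest level at 17 genes (40.5%) and mouse 2 the lowest at 17 (40.5%). Over genes brighter than the median gene, mouse 10 was highest at 17.2% and mouse 2 lowest at 14.8%. Among controls, mouse 7 was highest at 18 genes (42.9%, against 18.1% of the brighter genes) and mouse 8 lowest at 16 (38.1%, against 12.8%). Among the 13 genes that changed, mouse 2 was the lowest of its group at 4 (Pex11a, Crat, Abcd2 and Abcd3) and mouse 10 the highest at 5 (Pex11a, Hadh, Abcd2, Abcd3 and Crot).

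**Figure D3:**
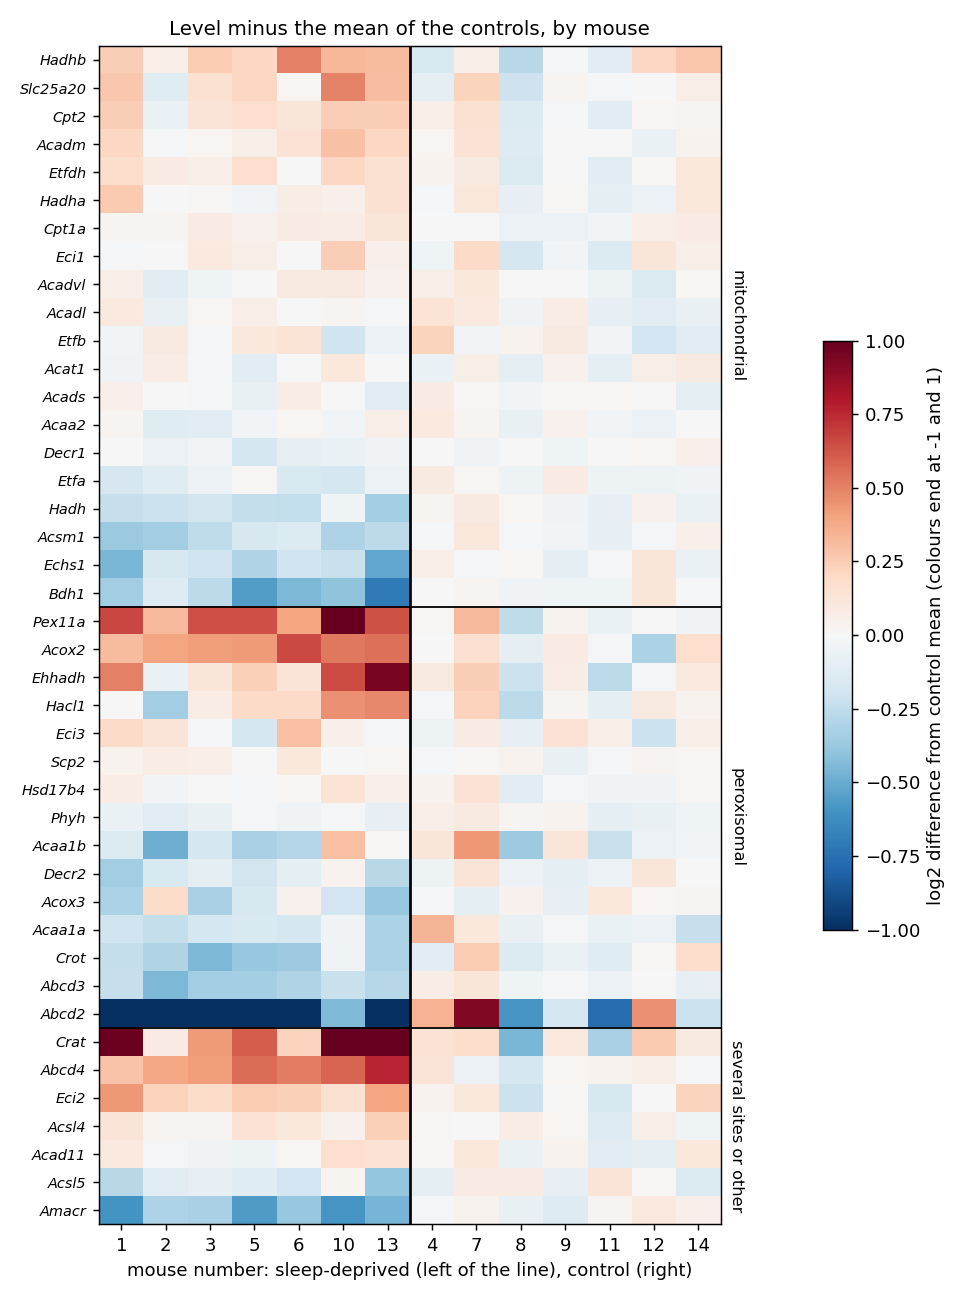
Log2 level of each of the 42 genes (rows, by site of the protein) in each of the 14 mice (columns, sleep-deprived left of the line and controls right) minus the mean of the controls, red above and blue below. Colours end at -1 and 1. The blocks of Pex11a, Acox2 and Abcd4 are red and those of Abcd2, Abcd3 and Amacr blue in all 7 sleep-deprived mice. Of the mitochondrial rows, Bdh1, Echs1 and Acsm1 are also blue in all 7, and most others are pale.

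Further genes of fatty acid and ketone body handling, 25 measured of a list of 30, gave 3 higher (12%) and 5 lower (20%). Their median was -0.042. Of all genes 3.88% were higher and 4.62% lower, and of genes brighter than the median gene 7.33% and 8.71%. Acsm5, a medium-chain acyl-CoA synthetase, had log2 levels from 8.67 to 9.02 in sleep-deprived mice and from 9.21 to 9.61 in controls and fell by 0.61 ± 0.062 (limma, adjusted p = 2.99e-06). Slc27a5, the bile acid and very-long-chain acyl-CoA synthetase, fell by 0.22 ± 0.040 (adjusted p = 0.00115). Slc16a1, a transporter of lactate and ketone bodies, rose by 0.54 ± 0.10 (limma, adjusted p = 0.00175). Acacb, which makes the malonyl-CoA that restrains Cpt1a, had log2 levels from 6.98 to 7.80 in sleep-deprived mice and from 6.14 to 7.28 in controls and rose by 0.70 ± 0.15 (adjusted p = 0.00462). The other genes that passed were Slc16a6 among the higher and Bdh2, Acsf2 and Acad9 among the lower. The call of Acad9 did not hold in 8 of the 14 leave-one-out fits, with adjusted p up to 0.0807 in limma.

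A list taken as other peroxisomal enzymes and membrane proteins gave 2 higher (8%) and 8 lower (32%) of 25 measured, with a median of -0.132. The site of each protein was not checked here. The same shares were 3.88% and 4.62% of all genes, and 7.33% and 8.71% of genes brighter than the median gene. Hao1, the glycolate oxidase, rose by 0.28 ± 0.043 and the membrane protein Pxmp4 by 0.52 ± 0.079. Idh1, a source of NADPH in cytosol and peroxisomes, fell by 0.32 ± 0.049, and Uox, the urate oxidase, by 0.22 ± 0.035. In each of these 4 genes the groups did not overlap (limma, adjusted p between 0.000203 for Hao1 and 0.000395 for Uox). The calls of Mvk, Pmvk and Pecr, among the lower ones, did not hold in 11, 10 and 10 of the 14 leave-one-out fits. Also lower were Nudt7, Lonp2 and Lactb2, whose calls held in all 14 of those fits. Lactb2 lost its call under 1 other alternative. Mvk and Pmvk belong to the mevalonate pathway.

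In peroxisome assembly 0 of 16 genes were higher and 1 (6.25%) lower, against 3.88% and 4.62% of all genes. Pex7, the import receptor of a small set of matrix proteins that includes the Acaa1 thiolases and Phyh, had log2 levels from 6.72 to 6.90 in sleep-deprived mice and from 7.01 to 7.15 in controls. The groups did not overlap, and Pex7 fell by 0.27 ± 0.049 (limma, adjusted p = 0.00102). In the respiratory chain and citrate cycle 1 of 26 genes was higher and 1 lower (3.85% each), with a median of -0.028. Peroxisome assembly had 6.25% and this list 7.69% called in total, against 8.50% of all genes and 16.0% of the brighter ones. Idh2, the mitochondrial isocitrate dehydrogenase that makes NADPH, fell by 0.40 ± 0.076 (limma, adjusted p = 0.00156). The call of Mdh2, the higher one, did not hold in 12 of the 14 leave-one-out fits, and its adjusted p reached 0.193 among all alternatives.

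**Figure D4:**
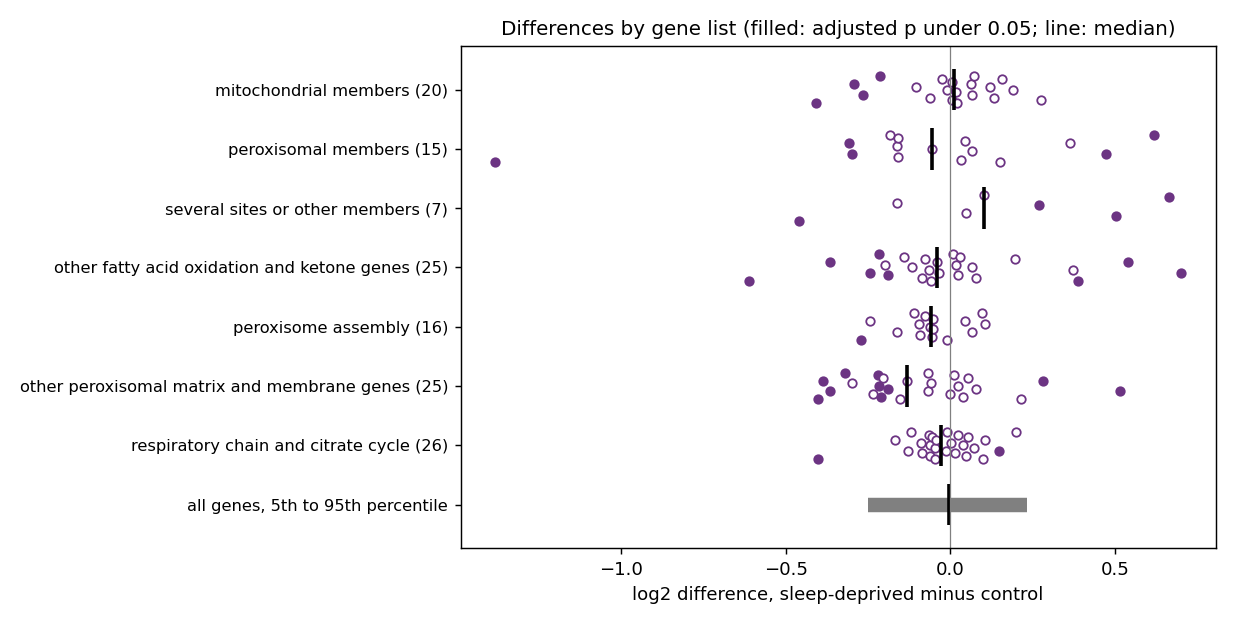
Log2 difference, sleep-deprived minus control, of each gene (points, filled at an adjusted p under 0.05) in the 42 oxidation genes by site and in 4 further lists, with the median of each list as a line and the 5th to 95th percentile of all genes, -0.25 to 0.23, as a grey bar. Most of the 42 oxidation genes, like most genes of the respiratory chain and citrate cycle, lie inside the span of the grey bar. Filled points mark 13 of the 42 oxidation genes, among them Abcd2 at -1.38. In the respiratory chain and citrate cycle they mark 1 higher and 1 lower gene of 26. Over genes brighter than the median gene the same percentiles were -0.33 and 0.30.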

How the data were processed

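Liver RNA, 100 ng per sample, was labelled with biotin for Affymetrix whole-transcript arrays, per the labels' protocols. Each deposited value is a log2 level of 1 probe set. RMA, named in the submitters' processing notes without a version, corrects background, equalises the arrays' distributions and summarises probes. Its settings and any filter are not stated in the labels. Of 41345 probe sets, 23521 had 1 gene symbol in the platform annotation, 1814 several and 16010 none. Symbols were updated by Entrez gene ID (23328 matched, 0 changed), and the brightest probe set per gene over the 14 arrays gave 22180 genes, with no filter on dim ones.

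Groups came from the sample titles. Sleep-deprived minus control was tested two-sided in R 4.3.3 by limma 3.58.1, using lmFit and eBayes(trend = TRUE), adjusted by Benjamini-Hochberg over all genes at a threshold of 0.05. SEs are limma's moderated ones. All 42 measured genes of the list are named. Of the 4 further lists, up to 4 genes with the smallest adjusted p get values, and other genes that passed are named after their values were seen. The genes, lists and sites were chosen with earlier results of these data known. Arrays have no depth, and 7 per group limit the precision. Alternatives were other moderation, array weights, the sample number as a covariate, bright genes only, other uses of probe sets, 2 normalizations and leaving out each mouse. The fit was also run on simulated data, with independent genes and planted differences larger than those of most oxidation genes that changed. That run says nothing about smaller differences. RefSeq promoters were matched by symbol.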

Additional observations from a re-analysis of the deposited data

Results flagged for a closer look

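Of 84 sets of 7 mice (42 genes in 2 groups), 3 held a mouse far from the rest of its group by Dixon's criterion, and chance alone flags about 1 in 20, or 4.2 here. Sleep-deprived mouse 2 was low at Cpt2, with a log2 level of 9.27 against a next lowest of 9.47. Sleep-deprived mouse 10 was high at Eci1, at 9.08 with the next at 8.93. Control mouse 12 was high at Bdh1, at 7.76 with the next at 7.66, and without it the difference of Bdh1 was -0.39 (limma, adjusted p = 0.00244).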

How the results depend on the processing

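The calls of all 13 genes held under each of the 23 alternatives that were run. The count of higher genes was 5 to 7 under the other settings and 5 to 9 when 1 mouse was left out, the 9 being without sleep-deprived mouse 2. The count of lower genes was 8 to 9. Of the 29 genes that did not pass, 6 did so under some alternative: Cpt2, Slc25a20, Hadhb, Ehhadh, Decr2 and Acaa1a. Acaa1a passed with the sample number as a covariate (-0.25, limma, adjusted p = 0.0375), as did Hadhb (0.36, adjusted p = 0.0181) and Ehhadh (0.48, adjusted p = 0.0199), Decr2 among the brighter genes alone (adjusted p = 0.0459), and Hadhb also without control mouse 12 or 14. The median of the mitochondrial genes ran from -0.0031 to 0.036 and that of the peroxisomal genes from -0.107 to -0.042. Over all genes, 1541 to 2259 were called.

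The sign changed in 5 genes close to 0, none of which passed under any alternative. With the sample number as a covariate Acadl was at -0.021 and Etfb at -0.068, and with array weights Acat1 was at -0.0050. After repeated quantile normalization Acads was at 0.00023 and Acat1 at -0.011. With 1 mouse left out, Acadl ran from -0.0026 to 0.040, Acadvl from -0.0036 to 0.041, Acads from -0.027 to 0.0046, Etfb from -0.026 to 0.043 and Acat1 from -0.014 to 0.023. The cause was not tested. No paired analysis was possible because the numbers in the titles are shared by no 2 samples. Hadhb and Eci3, dimmer than the median gene, gave no value when the dimmer genes were left out.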

Other observations

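Levels of the oxidation genes varied more between sleep-deprived than between control mice at 25 of 42 genes (59.5%), against 45.8% of all genes. The SD was over 2 times as large in the sleep-deprived group at 2 genes, Bdh1 (0.189 in sleep-deprived mice, 0.0597 in controls) and Acox3 (0.207 in sleep-deprived mice, 0.0732 in controls). No test of the spread was made.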
